A study of Rattus norvegicus with 12 samples.

Results

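The genes described are the rat cadherins and protocadherins whose symbol is Cdh or Pcdh followed by a number and which the deposited table places on chromosomes 1 to 20. They are 32 of the 22431 genes in the table. A further symbol of this form, Pcdh19, was placed on chromosome X and was left out by that rule. Cadherins are transmembrane proteins whose extracellular repeats bind calcium and hold neighbouring cells together. Classical cadherins, divided into type I and type II, reach the actin cytoskeleton through catenins bound to their cytoplasmic tail, and in the cortex they are known for sorting neurons into layers and for positioning synapses. Non-clustered protocadherins lack the catenin-binding tail of classical cadherins and are divided into delta-1 and delta-2 members. They are known for weak adhesion between cells of like type, for axon outgrowth and for the removal or placement of synapses.

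Poly(A) RNA was sequenced from the prefrontal cortex of young rats, at the age the labels call early adolescence, with 1 library for each of 12 animals. The 4 PNO animals had postnatal exposure to oxycodone, an opioid agonist, the 4 IUO animals had exposure to it in utero, and the 4 saline animals were the controls, with a wild-type genotype in every group. Oxycodone was given at 15 mg/kg by oral gavage, and dosing ended at postnatal day 21 at the latest. The labels do not say which dosing window belongs to which group, name no dose for the saline animals, and give no sex. A group holds the offspring of 2 dams, 2 from each. Which animal belongs to which dam is not in the labels, so littermates count as separate animals and the p values may be too small.

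The members fall into classes that the name does not show. By the classes used here, 5 are type I classical cadherins (Cdh1, Cdh2, Cdh3, Cdh4 and Cdh15), 13 are type II cadherins, 3 are delta-1 protocadherins (Pcdh1, Pcdh7 and Pcdh9) and 4 are delta-2 protocadherins (Pcdh8, Pcdh10, Pcdh17 and Pcdh18). The remaining 7 carry a Cdh or Pcdh number but are placed in none of these classes. Among these, Cdh13 (T-cadherin) is held in the membrane by a lipid anchor and has no cytoplasmic tail, Cdh17 has more extracellular repeats than a classical cadherin, and Cdh23 and Pcdh15 are the long partners that form the tip links of inner-ear hair cells. Cdh26, Pcdh12 and Pcdh20 are the other 3. A mean of at least 0.5 FPKM over the 12 libraries was required for testing, where FPKM is the deposited level per gene length and library size. In all, 25 members met it, namely 3 type I, 12 type II, 3 delta-1 and 4 delta-2 members with Cdh13, Pcdh15 and Pcdh20. The member nearest above that limit was Pcdh15, at a mean of 0.551 FPKM, and the nearest below it was Cdh1, at 0.407 FPKM.

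Total counts per library ran from 49227533 to 60672246, and the 32 members together took 0.0792% (IUO 4) to 0.111% (PNO 1) of them. Markers of excitatory cortical neurons were present in every library, with the summed level of 4 genes between 1575 CPM (counts scaled to library size and composition) in IUO 4 and 2722 CPM in saline 3. Libraries differed in markers of tissue next to the prefrontal cortex. Eomes, a T-box transcription factor of olfactory bulb projection neurons, was raised in PNO 1, PNO 3, PNO 4 and IUO 3, and Drd2, the dopamine receptor of indirect-pathway striatal neurons, was raised in PNO 2, IUO 1, IUO 2 and saline 2. A library is called raised when its log2 CPM is more than 1 above the median of the 12 libraries. IUO 4, saline 1, saline 3 and saline 4 were raised for neither. All 8 olfactory bulb markers and all 10 striatal markers had reads in at least 1 library.

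Type I cadherins were led by Cdh2 (N-cadherin), which joins neural progenitors and synaptic membranes. Its level was 14.2 ± 1.87 FPKM in PNO, 13.6 ± 0.601 FPKM in IUO and 12.1 ± 1.62 FPKM in saline libraries (mean ± SD, n = 4 each, as for all group means below). Cdh4 (R-cadherin, first known from retina) stood at 5.97 ± 0.335 FPKM in PNO, 5.09 ± 1.44 FPKM in IUO and 4.71 ± 0.340 FPKM in saline, so the type I members differed in level by more than any of them varied between groups. Cdh15 (M-cadherin, known from muscle) had a mean of 1.03 FPKM over the 12 libraries. The epithelial member Cdh1 (E-cadherin) and Cdh3 (P-cadherin), at 0.407 and 0.371 FPKM, were not tested.

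Among the type II cadherins Cdh22, known from brain and pituitary, was the highest. Its FPKM was 20.4 ± 1.01 in PNO, 19.3 ± 0.832 in IUO and 18.3 ± 2.63 in saline. Cdh24, Cdh10 and Cdh11 followed, at means of 10.6, 10.4 and 9.17 FPKM over the 12 libraries. Cdh24 and Cdh10 were too close to order, since each varied between libraries by more than the gap between them. Cdh5 (VE-cadherin, the junction cadherin of endothelial cells) was at 3.56 FPKM, and the lowest tested type II members were Cdh6 at 0.938 FPKM and Cdh12 at 0.735 FPKM. Cdh19, known from Schwann cells and their precursors, was at 0.255 FPKM and was not tested.

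Cdh13 was the member with the highest FPKM of all 32. It stood at 34.8 ± 1.05 FPKM in PNO, 28.4 ± 4.98 FPKM in IUO and 25.3 ± 1.42 FPKM in saline. Pcdh1, a delta-1 protocadherin, came next among all members, at 24.5 ± 2.81 FPKM in PNO, 21.3 ± 4.00 FPKM in IUO and 24.4 ± 5.71 FPKM in saline. The saline ranges of Cdh13 and Pcdh1 overlapped, so their order held for the means and not for every library. Of the other delta-1 members, Pcdh9 averaged 7.17 FPKM and Pcdh7 2.47 FPKM. The delta-2 members Pcdh10, known in mouse for its part in the removal of synapses, and Pcdh8 (arcadlin in rat, induced by neuronal activity) averaged 13.6 and 13.3 FPKM, while Pcdh17 averaged 1.48 FPKM and Pcdh18 averaged 1.08 FPKM. Pcdh20 averaged 5.38 FPKM. The protocadherins thus covered much of the range of the cadherins, with no class lying wholly above another.

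**Figure D1:**
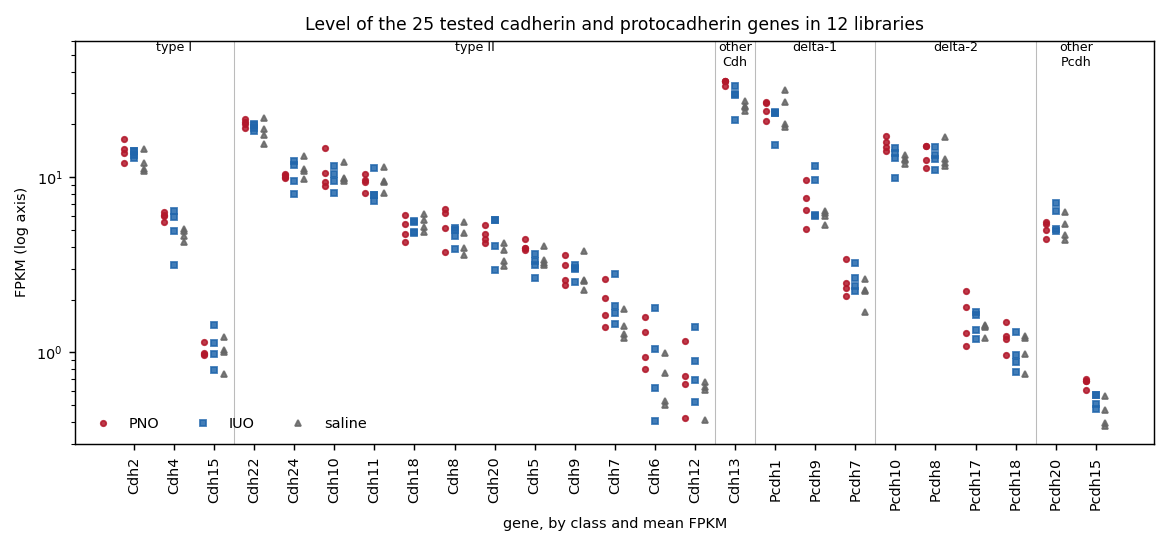
FPKM (log axis) of the 25 tested members in each library, by class and by mean level, with PNO as circles, IUO as squares and saline as triangles. Cdh13 and Pcdh1 stand at the top and Pcdh15 at the bottom, and for most members the 3 groups overlap.

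Members that lie in the same stretch of a chromosome could differ widely in level, as in the 2 stretches given here. However, Cdh3 and Cdh1 on chromosome 19 were both low, at 0.371 and 0.407 FPKM. Whether other genes lie between the members was not examined. Coordinates here are those of the deposited table, whose genome build is not given in the sources used here. On chromosome 2, between 62079137 and 73820138, lie 5 type II cadherin genes (Cdh6, Cdh9, Cdh10, Cdh12 and Cdh18), with means from 0.735 FPKM for Cdh12 to 10.4 FPKM for Cdh10. On chromosome 15, between 55198459 and 70237538, lie Pcdh8, Pcdh17, Pcdh20 and Pcdh9, with means from 1.48 FPKM for Pcdh17 to 13.3 FPKM for Pcdh8. Members also tended to be long transcripts. Judged from counts and FPKM, 24 of the 25 tested members were longer than the median tested gene, and their median length was 1.52 times that of all tested genes.

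Between libraries the members varied by unequal amounts. For the median member the highest library was 1.76 times the lowest in CPM. Cdh2 was the steadiest at 1.43 times, while Cdh6 (K-cadherin, known from kidney) reached 4.30 times, Cdh12 reached 3.29 times and Cdh7 reached 2.34 times. Cdh6 stood at 5.99, 5.06, 3.64 and 3.10 CPM in PNO 1 to 4, at 4.00, 6.88, 2.42 and 1.60 CPM in IUO 1 to 4 and at 2.91, 2.02, 3.94 and 2.03 CPM in saline 1 to 4. Its highest library was IUO 2 and its lowest IUO 4, so the widest gap lay within a single group. Cdh6, and further down Cdh8, Cdh9, Cdh10, Cdh11, Cdh15, Cdh18, Cdh23, Cdh24, Pcdh8 and Pcdh17, were named after their values were seen. IUO 4 was the lowest library for 12 of the 25 tested members and the highest for 1 of them. The highest library was a PNO library for 10 members, an IUO library for 8 and a saline library for 7. Such counts were not made over all tested genes, so they cannot be read as particular to the members. IUO 4 also stood apart from the other IUO libraries over all tested genes, as given with the processing. In log2 CPM relative to each gene's mean over the 12 libraries, the median member stood at 0.25, 0.08, -0.06 and 0.04 in PNO 1 to 4. Its value was 0.09, 0.03, -0.05 and -0.28 in IUO 1 to 4, and -0.14, -0.12, 0.03 and -0.15 in saline 1 to 4. PNO 1 and IUO 4 thus marked the ends of the range. Eomes was raised in PNO 1, though higher in PNO 4 and IUO 3, and neither marker was raised in IUO 4.

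Whether the members followed Eomes or Drd2 was read library by library. Eomes was at 6.56, 0.468, 5.82 and 7.78 CPM in PNO 1 to 4, at 0.757, 0.285, 11.2 and 0.442 CPM in IUO 1 to 4 and at 0.280, 0.221, 0.468 and 0.159 CPM in saline 1 to 4. Drd2 was at 9.37, 75.8, 5.22 and 6.75 CPM in PNO 1 to 4, at 20.2, 49.9, 5.71 and 3.98 CPM in IUO 1 to 4 and at 4.56, 15.9, 4.95 and 4.92 CPM in saline 1 to 4. No library was raised for both genes. The summed level of the 8 olfactory bulb markers was 178 to 259 CPM in the 4 libraries with raised Eomes, against 27.6 to 58.6 CPM in the other 8. The summed level of the 10 striatal markers was 561 to 1648 CPM in the 4 libraries with raised Drd2, against 234 to 342 CPM in the other 8. The same 4 libraries with raised Drd2 also had more oligodendrocyte marker RNA (6 genes, 11453 to 15898 CPM, against 6485 to 9169 CPM in the other 8) and less meningeal marker RNA (6 of 7 listed genes, 122 to 147 CPM, against 174 to 405 CPM). Striatal, oligodendrocyte and meningeal markers therefore move together across these libraries and cannot be told apart here. In bulk tissue, fewer cells of a type and less RNA per cell also cannot be told apart.

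No tested member followed either gene in the strict sense. In none of the 25 were the 4 libraries with raised Eomes all above the other 8 (1.21% of the 14170 tested genes) or all below them (0.226% of tested genes). Likewise, in none were the 4 libraries with raised Drd2 all above the other 8 (1.26% of tested genes) or all below them (0.381% of tested genes). Under a looser reading, at least 3 of the 4 highest libraries were libraries with raised Eomes for 7 of 25 members, or 28%, against 7.85% of tested genes. These were Cdh4, Cdh10, Cdh13, Pcdh8, Pcdh10, Pcdh15 and Pcdh18. Because 3 of the 4 libraries with raised Eomes are PNO libraries, this count cannot be told apart from a difference between PNO and the other groups. At least 3 of the 4 highest libraries had raised Drd2 for 4 of 25 members (16%, against 12.4% of tested genes), namely Cdh6, Cdh9, Pcdh9 and Pcdh17. The reverse order, with at least 3 of the 4 lowest libraries raised, was met by no member for Eomes (7.18% of tested genes) and by Cdh24 alone, or 4%, for Drd2 (11.0% of tested genes).

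Ordering the libraries within each group reads the markers apart from the groups, and this reading was added after the values were seen. Within PNO it cannot tell the markers from each other. PNO 2 had raised Drd2 and all other PNO libraries had raised Eomes, so both markers split PNO alike. The libraries with raised Eomes lay above the others of their group, in both PNO and IUO, for 3 members, Cdh10, Cdh24 and Pcdh18 (12%, against 7.57% of tested genes). Pcdh18 stood at 6.42, 5.32, 6.83 and 8.16 CPM in PNO 1 to 4, at 5.22, 4.83, 7.15 and 4.31 CPM in IUO 1 to 4 and at 6.60, 5.36, 6.99 and 4.32 CPM in saline 1 to 4. PNO 2 was the lowest PNO library and IUO 3 the highest IUO library, but saline 1 and saline 3, where Eomes was not raised, lay within the range of the libraries with raised Eomes. Cdh10 stood at 49.3, 30.6, 32.1 and 35.9 CPM in PNO 1 to 4, at 35.2, 32.6, 39.4 and 28.3 CPM in IUO 1 to 4 and at 32.3, 33.3, 42.9 and 35.1 CPM in saline 1 to 4, and only PNO 1 exceeded saline 3. For Cdh24 the order held within PNO only narrowly, since its PNO libraries spanned 36.1 to 37.9 CPM. Pcdh15 and Cdh9 had the opposite order, with the raised libraries below the others (8%, against 6.65% of tested genes).

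The libraries with raised Drd2 lay above the others of their group in PNO, IUO and saline for 2 members, Cdh13 and Pcdh15 (8%, against 2.97% of tested genes), and below them for none (2.17% of tested genes). Cdh13 reached 142 CPM in PNO 2 and 133 to 140 CPM in the other PNO libraries. It was at 130 and 119 CPM in IUO 1 and IUO 2, against 116 and 85.8 CPM in IUO 3 and IUO 4, and at 108 CPM in saline 2, against 98.5 to 103 CPM in the other saline libraries. For Pcdh15 the raised libraries were at 6.59 CPM in PNO 2, 5.20 and 5.27 CPM in IUO 1 and IUO 2, and 5.19 CPM in saline 2. In both genes the PNO libraries without raised Drd2 (from 133 CPM for Cdh13 and from 5.69 CPM for Pcdh15) still lay above saline 2, the saline library with raised Drd2. Those PNO libraries all had raised Eomes, so group and markers cannot be told apart here. Pcdh9, a delta-1 protocadherin, stood at 57.8, 47.4, 31.4 and 40.0 CPM in PNO 1 to 4, at 58.6, 71.3, 37.5 and 37.5 CPM in IUO 1 to 4 and at 37.9, 36.9, 40.7 and 34.4 CPM in saline 1 to 4. It was highest in IUO 2 and IUO 1, but PNO 1 exceeded PNO 2 and saline 2 was not raised, so it followed Drd2 in IUO and not in the other 2 groups.

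**Figure D2:**
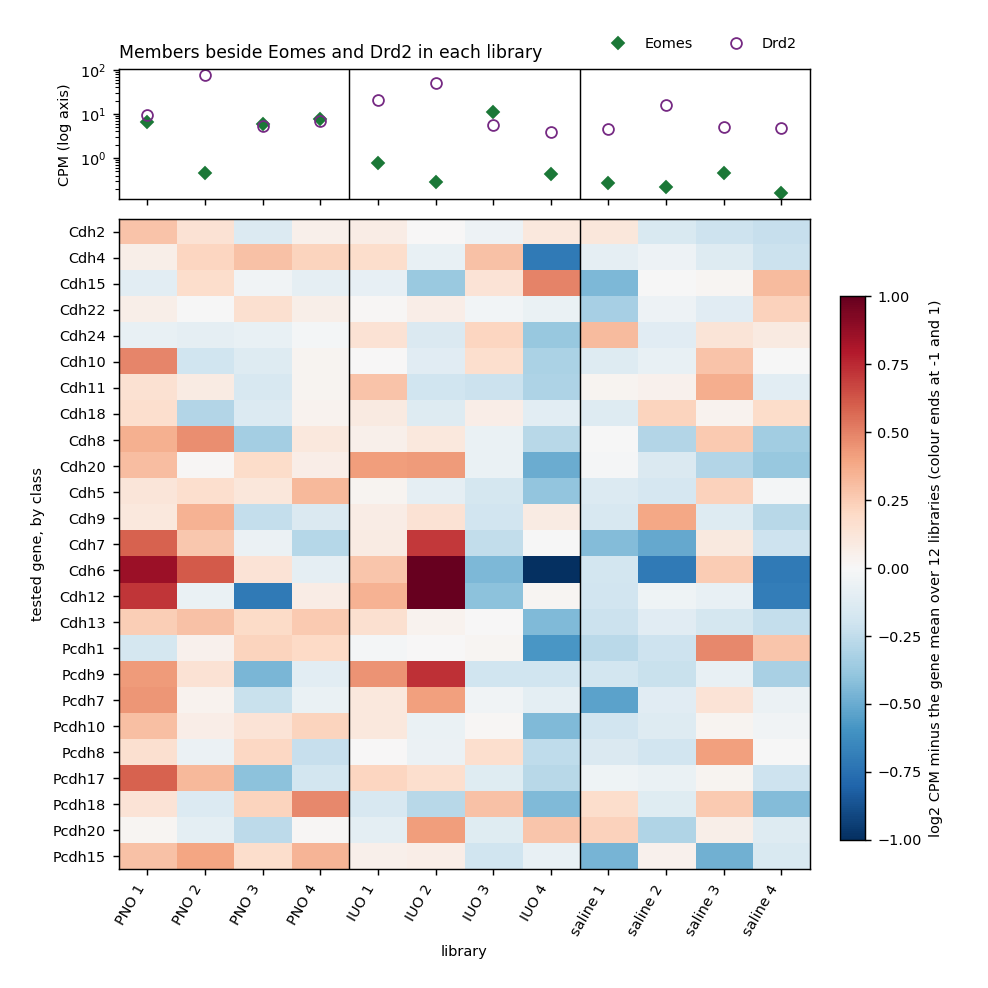
Upper panel, CPM of Eomes (filled diamonds) and Drd2 (open circles) in each library on a log axis; lower panel, log2 CPM of each tested member minus its mean over the 12 libraries, in colour, with black lines between PNO, IUO and saline. PNO 1 is mostly red and IUO 4 mostly blue, and no row has the pattern of either marker in all 12 libraries.

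**Figure D3:**
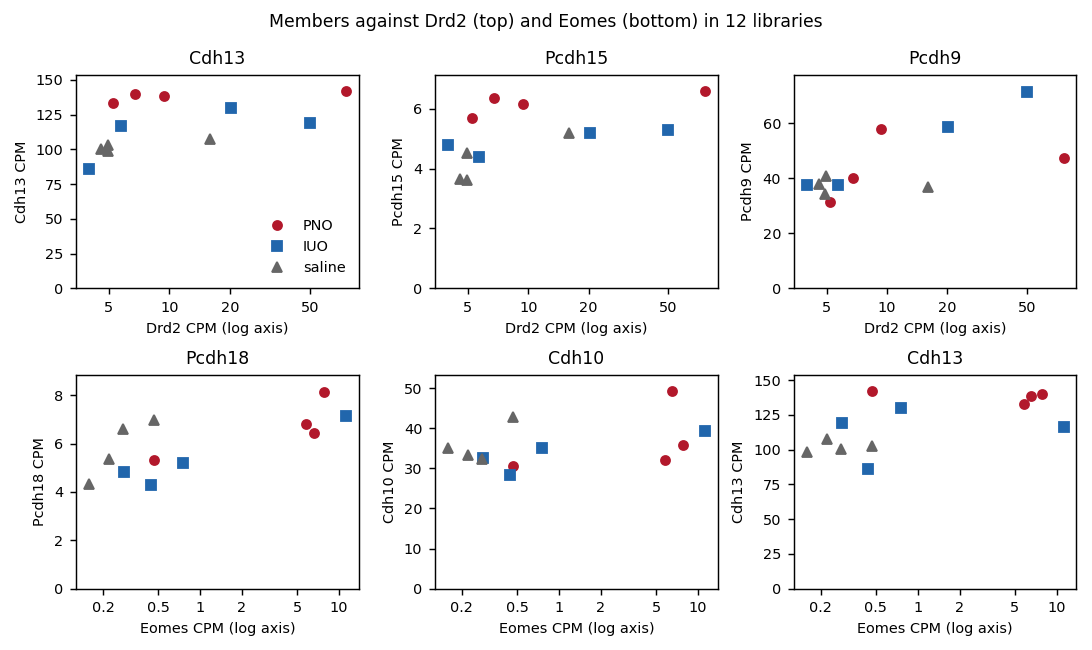
CPM of members in the 12 libraries against Drd2 (top: Cdh13, Pcdh15, Pcdh9) and against Eomes (bottom: Pcdh18, Cdh10, Cdh13), with each marker on a log axis and groups by symbol and colour. For Cdh13 the PNO libraries lie at 133 to 142 CPM at low and at high Drd2 alike, all above the saline libraries. The PNO libraries at low Drd2 are those with raised Eomes.

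The comparison of PNO with saline asks whether postnatal oxycodone exposure went with altered levels in the adolescent cortex. Every PNO library was raised for Eomes or for Drd2, whereas saline 1, saline 3 and saline 4 were raised for neither. Exposure and these markers therefore cannot be told apart in this comparison. No member passed an adjusted p of 0.05 in edgeR (0 of 14170 genes over the whole table, 0%), nor in limma, whereas DESeq2 called 1, Cdh13. In edgeR the smallest adjusted p of a member was 0.305. An unadjusted p under 0.05 was met by 3 of 25 members, or 12%, against 11.0% of tested genes, so that share was near the background. The number was 5 without PNO 3, without saline 3 or without IUO 4, where 1553, 1293 and 2267 of the 14170 genes met that p. It was 2 without PNO 1, PNO 4 or saline 2, where 1235, 1234 and 1141 genes did, against 1564 in the full fit. All 3 of the full fit had higher means in PNO, where 6.82% of tested genes were higher at that p. The log2 fold change was positive for 18 of 25 members, or 72%, against 51.2% of tested genes, with a median of 0.20 against 0.01 over all tested genes and a range from -0.18 for Cdh24 to 0.71 for Cdh6. For 5 members, or 20%, all 4 PNO libraries lay above all 4 saline libraries, against 5.17% of tested genes, and for none did they all lie below (4.66% of tested genes). These 5 were Cdh4, Cdh13, Cdh20, Pcdh10 and Pcdh15.

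Cdh13 had the smallest p. The gene (ENSRNOG00000014371) lies on the plus strand of chromosome 19, from 46349430 to 47387459 in the deposited table. It stood at 138, 142, 133 and 140.0 CPM in PNO 1 to 4, against 100.3, 108, 103 and 98.5 CPM in saline 1 to 4. The groups did not overlap, and each spanned less than the gap between their means. Its log2 fold change was 0.44 (SE 0.105, unadjusted p = 0.00110, adjusted p = 0.305). DESeq2 on the same counts gave an adjusted p of 0.0325, and edgeR gave 0.0433 when only the PNO and saline libraries were fitted and 0.0311 when IUO 4 was left out, so the call rests on the tool and on IUO 4, a library outside the comparison. With the log2 CPM of Eomes and of Drd2 as covariates the log2 fold change was 0.04 (adjusted p = 0.995). Without the libraries with raised Eomes, which leaves PNO 2 alone in its group, it was 0.46. Without those with raised Drd2, which leaves PNO 1, PNO 3 and PNO 4, it was 0.45. PNO 2 had raised Drd2 and the other PNO libraries had raised Eomes, so neither exclusion compared PNO libraries free of both markers with saline.

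Pcdh15, which is known from oligodendrocyte precursors in brain as well as from hair cells, came next by p. The gene (ENSRNOG00000000606) lies on the minus strand of chromosome 20, from 13963565 to 15494719 in the deposited table. It stood at 6.17, 6.59, 5.69 and 6.36 CPM in PNO 1 to 4, against 3.64, 5.19, 3.61 and 4.52 CPM in saline 1 to 4. The lowest PNO library, PNO 3, was above the highest saline library, saline 2. The log2 fold change was 0.55 (SE 0.154, unadjusted p = 0.00337, adjusted p = 0.311). With both covariates in edgeR it was 0.55 with a wider SE of 0.276 (unadjusted p = 0.0689, adjusted p = 0.995). With the length trend removed it was 0.42 (SE 0.156). The 2 precursor markers Pdgfra and Cspg4 summed to 58.9 to 72.8 CPM in PNO and to 60.1 to 76.0 CPM in saline, so their ranges overlapped. Cdh23, the partner of Pcdh15 in hair cells, was below the testing limit at a mean of 0.144 FPKM. It stood at 2.85, 1.94, 1.88 and 3.19 CPM in PNO 1 to 4, against 0.741, 1.497, 1.28 and 0.988 CPM in saline 1 to 4, without overlap. In a fit of all 22431 genes with no limit its log2 fold change was 1.11 (SE 0.290, unadjusted p = 0.00187, adjusted p = 0.432).

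Pcdh10 stood at 109, 92.6, 97.2 and 103 CPM in PNO 1 to 4, against 77.2, 80.8, 89.9 and 86.4 CPM in saline 1 to 4, with a log2 fold change of 0.26 (SE 0.107, unadjusted p = 0.0276, adjusted p = 0.417). PNO 2, with raised Drd2, was the lowest PNO library and lay just above saline 3. Cdh4 stood at 36.8, 40.9, 43.2 and 41.1 CPM in PNO 1 to 4, against 33.2, 34.1, 32.3 and 30.4 CPM in saline 1 to 4, with a log2 fold change of 0.32 (SE 0.164, unadjusted p = 0.0756, adjusted p = 0.503). Cdh20, a type II cadherin, stood at 15.2, 12.4, 14.0 and 12.9 CPM in PNO 1 to 4, against 12.2, 11.1, 10.05 and 9.46 CPM in saline 1 to 4, with a log2 fold change of 0.35 (SE 0.184, unadjusted p = 0.0816, adjusted p = 0.510). Its lowest PNO library, PNO 2, was 12.4 CPM and its highest saline library, saline 1, was 12.2 CPM, so the groups were apart by less than the spread within either. With the Eomes and Drd2 covariates the log2 fold change turned negative for these 3 genes, with a wider SE than in the full fit. It was -0.11 (SE 0.173) for Pcdh10, -0.43 (SE 0.214) for Cdh4 and -0.09 (SE 0.331) for Cdh20. Cdh2 overlapped between the groups, at 67.1 ± 8.13 CPM in PNO and 58.1 ± 6.60 CPM in saline, with a log2 fold change of 0.21 (SE 0.101, unadjusted p = 0.0619, adjusted p = 0.473).

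By class, the median log2 fold change of PNO against saline was 0.21 for the 3 type I members, 0.16 for the 12 type II members, 0.19 for the 3 delta-1 members and 0.20 for the 4 delta-2 members. Positive values were held by 2 of 3, 9 of 12, 2 of 3 and 3 of 4 members of these classes, so most members of each class were positive. Differences between classes were not tested. Without PNO 1, the library with the highest median member, the median over all 25 members was 0.07, with 19 of 25 positive. With the Eomes and Drd2 covariates it was -0.06, with 9 of 25 positive. The fold changes also moved with transcript length, with a Spearman correlation of 0.329 across the 14170 genes, which are not independent replicates. Removing the length trend in each library left a median of 0.13 over the 25 members.

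**Figure D4:**
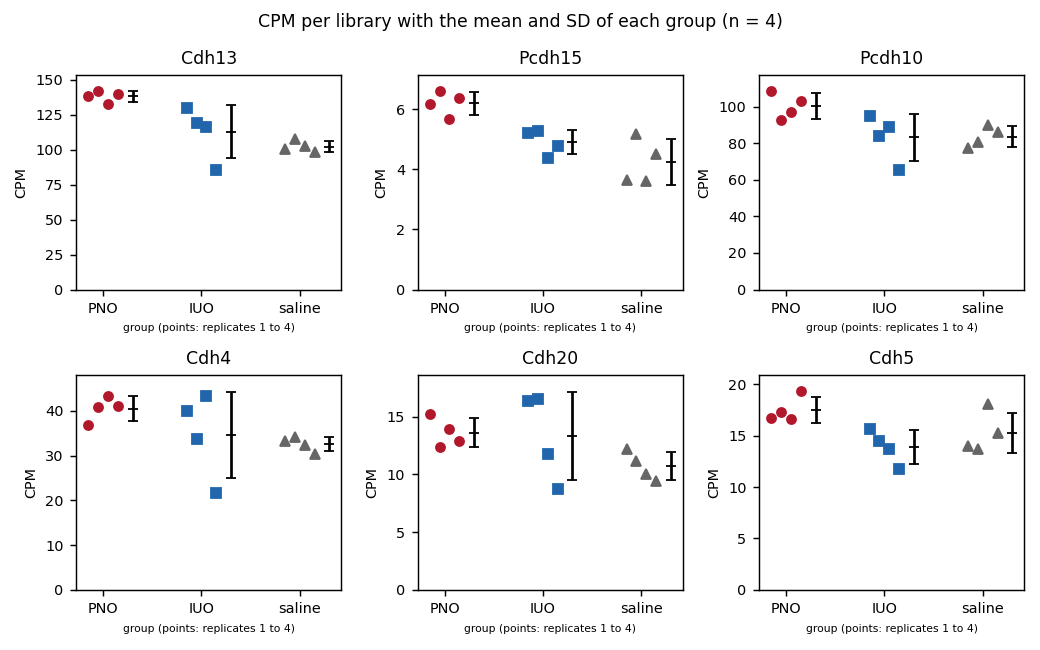
CPM of Cdh13, Pcdh15, Pcdh10, Cdh4, Cdh20 and Cdh5 in the 4 replicates of PNO, IUO and saline, with the mean and SD of each group beside the points. The PNO points lie above all saline points for the first 5 genes and not for Cdh5, and IUO 4 is the lowest library of its group in all panels but that of Pcdh15.

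Promoters are shown for Pcdh15, Pcdh10 and Cdh20, those of the 5 non-overlapping genes that had an entry in the RefSeq table of rat promoters (build GRCr8), since these genes lay in the same direction between PNO and saline. Of the 32 members 23 were matched by symbol. Each sequence below is the 250 bases before the annotated start, on the gene's own strand, with a searched motif in capitals. The motifs were the E-box CAGGTG, the T-box core AGGTGT bound by factors of the Eomes family, the GC box GGGCGG and the TATA box TATAAA, each on both strands, and the E-box and T-box can overlap by 5 bases. Pcdh15 is at chr20:14824799-14825048 (minus strand), Pcdh10 at chr2:130553188-130553437 (plus strand) and Cdh20 at chr13:21515017-21515266 (plus strand).
Pcdh15: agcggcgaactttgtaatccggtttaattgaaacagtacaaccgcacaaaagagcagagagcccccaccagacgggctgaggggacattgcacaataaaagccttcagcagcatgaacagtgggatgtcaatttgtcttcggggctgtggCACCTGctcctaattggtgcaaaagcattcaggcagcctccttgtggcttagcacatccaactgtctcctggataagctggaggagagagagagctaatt
Pcdh10: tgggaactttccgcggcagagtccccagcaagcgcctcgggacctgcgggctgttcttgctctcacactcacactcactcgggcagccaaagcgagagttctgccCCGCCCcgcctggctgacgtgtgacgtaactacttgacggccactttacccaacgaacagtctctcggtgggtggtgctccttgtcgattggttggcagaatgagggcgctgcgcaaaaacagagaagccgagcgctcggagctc
Cdh20: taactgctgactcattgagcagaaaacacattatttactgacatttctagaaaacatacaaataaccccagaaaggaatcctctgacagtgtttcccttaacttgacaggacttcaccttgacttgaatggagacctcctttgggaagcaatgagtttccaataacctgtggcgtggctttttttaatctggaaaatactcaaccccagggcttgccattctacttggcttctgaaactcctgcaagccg
The windows differ in make-up. Pcdh10 has 61.2% GC with 20 CpG sites and 1 GC box, Pcdh15 has 50.4% GC with 6 CpG sites and 1 E-box, and Cdh20 has 42.4% GC with 2 CpG sites and none of the motifs. Among the 23 matched members the median was 54.4% GC and 8 CpG sites, against 52% and 6 over all 27457 promoters. A GC box was found in 8 of 23 members, against 32.4% of all promoters. The E-box was found in Pcdh15 alone (15.6% of all promoters), the T-box core in Pcdh17 alone (11.4% of all promoters), and the TATA box in Cdh19 and Pcdh8 (13.1% of all promoters). None of the 3 promoters shown shares a searched motif with another.

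The comparison of IUO with saline asks the same of exposure in utero. It gave no member with an adjusted p under 0.05 in edgeR (0 of 14170 genes, 0%) and none with an unadjusted p under 0.05, against 4.02% of tested genes (2.31% higher and 1.71% lower in IUO), and neither DESeq2, with 1 member at an unadjusted p under 0.05, nor limma called a member. The log2 fold change was positive for 16 of 25 members, or 64%, against 56.4% of tested genes, with a median of 0.08 against 0.02 and a range from -0.23 for Pcdh1 to 0.56 for Cdh12. Without the 4 libraries with raised Drd2, which leaves only IUO 3 and IUO 4 in IUO, that median turned to -0.048, with 11 of 25 positive. IUO 4 was the lowest library for 12 of the 25 members, so that fit cannot tell Drd2 from IUO 4. With the Eomes and Drd2 covariates the median turned to -0.16, with 10 of 25 positive. Without IUO 2 it was 0.02, with 14 of 25 positive. Members at an unadjusted p under 0.05 numbered 4 without IUO 4 and 3 without IUO 3, where 1276 and 685 of the 14170 genes met that p. Over all genes it was met by 570 in the full fit and by 648 with DESeq2. In no tested member did the IUO libraries all lie above the saline libraries (1.15% of tested genes) or all below them (1.03% of tested genes). The smallest p belonged to Pcdh9, at 51.2 ± 16.7 CPM in IUO and 37.5 ± 2.63 CPM in saline, with a log2 fold change of 0.45 (SE 0.214, unadjusted p = 0.0552, adjusted p = 0.998). Its IUO 1 and IUO 2 libraries, both with raised Drd2, stood above every saline library, while IUO 3 and IUO 4 lay inside the saline range. Without the 4 libraries with raised Drd2 its log2 fold change was -0.0078.

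The next 3 members by p were type II cadherins, each at its highest in IUO 2. Cdh7 stood at 6.39, 9.85, 5.07 and 6.02 CPM in IUO 1 to 4, against 4.46, 4.22, 6.44 and 5.22 CPM in saline 1 to 4, with a log2 fold change of 0.43 (SE 0.240, unadjusted p = 0.0998, adjusted p = 0.998). That value was 0.20 without IUO 2 and 0.045 without the libraries with raised Drd2. The latter fit leaves only IUO 3 and IUO 4 in IUO, here and for Cdh12 and Cdh20 below. Cdh12 stood at 3.58, 5.68, 2.11 and 2.85 CPM in IUO 1 to 4, against 2.47, 2.74, 2.67 and 1.75 CPM in saline 1 to 4, with a log2 fold change of 0.56 (SE 0.329, unadjusted p = 0.111, adjusted p = 0.998). For Cdh12 it was 0.24 without IUO 2 and 0.11 without the libraries with raised Drd2. Cdh20 stood at 16.4, 16.5, 11.7 and 8.71 CPM in IUO 1 to 4, against 12.2, 11.1, 10.05 and 9.46 CPM in saline 1 to 4, with a log2 fold change of 0.32 (SE 0.184, unadjusted p = 0.108, adjusted p = 0.998). Its 2 IUO libraries with raised Drd2 were above all saline libraries and IUO 4 was below them all, and without the libraries with raised Drd2 the Cdh20 log2 fold change was -0.05. IUO 2 also carried the most choroid plexus marker RNA, at a sum of 207 CPM over 5 genes against 1.41 to 21.3 CPM in the other 11 libraries, and the part of these markers was not tested. Below the testing limit, Cdh19 stood at 1.18, 1.61, 0.974 and 0.920 CPM in IUO 1 to 4, against 0.823, 0.919, 0.451 and 0.388 CPM in saline 1 to 4, and IUO 4 lay only narrowly above saline 2. By class the median was 0.09 for type I, 0.04 for type II, 0.23 for delta-1 and -0.04 for delta-2 members.

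IUO was also set against PNO directly, a comparison of in utero with postnatal exposure. No member passed an adjusted p of 0.05 in edgeR (0 of 14170 genes, 0%), nor in DESeq2 or limma. An unadjusted p under 0.05 was met by 4 of 25 members, or 16%, against 6.73% of tested genes, and all 4 had lower means in IUO, as did 3.06% of tested genes at that p, with 3.67% higher. That number rested on single libraries, since it was 1 without IUO 4, 1 without PNO 4 and 2 without PNO 1. Over the 14170 genes that p was met by 603, 720 and 902 in these fits, against 953 in the full fit. With the Eomes and Drd2 covariates the number of members was 0, and 496 genes met that p. The log2 fold change was positive for 8 of 25 members, or 32%, against 50.8% of tested genes, with a median of -0.07 against 0.00 over all tested genes and a range from -0.34 for Pcdh15 to 0.24 for Cdh12. For 3 members, or 12%, the 4 IUO libraries all lay below the 4 PNO libraries, against 1.78% of tested genes, and for none did they all lie above (1.85% of tested genes). This comparison shares the PNO libraries with the comparison of PNO and saline, so the members below are not a second, independent sign of the values given there.

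Cdh13 was at 129.9, 119, 116 and 85.8 CPM in IUO 1 to 4, against 138, 142, 133 and 140.0 CPM in PNO 1 to 4. Its IUO libraries spread more than its PNO libraries, with IUO 4 far below the rest, and the log2 fold change was -0.29 (SE 0.105, unadjusted p = 0.0147, adjusted p = 0.714). Cdh5 stood at 15.7, 14.5, 13.7 and 11.7 CPM in IUO 1 to 4, against 16.7, 17.3, 16.7 and 19.3 CPM in PNO 1 to 4, with a log2 fold change of -0.33 (SE 0.123, unadjusted p = 0.0175, adjusted p = 0.714). Endothelial markers did not show that order. The sum of the 5 listed endothelial genes found in the table was 107 to 121 CPM in IUO and 98.7 to 113 CPM in PNO, so those ranges overlapped. Pcdh15 stood at 5.20, 5.27, 4.38 and 4.79 CPM in IUO 1 to 4, all below the 5.69 CPM of PNO 3, with a log2 fold change of -0.34 (SE 0.154, unadjusted p = 0.0466, adjusted p = 0.714). The precursor markers were also lower in IUO, at 52.3 to 57.8 CPM against 58.9 to 72.8 CPM in PNO without overlap, and their part in the value of Pcdh15 was not tested.

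The delta-2 protocadherins had a lower mean in IUO than in PNO for 4 of 4 members, with a median log2 fold change of -0.20, and 1 of the 4 had an unadjusted p under 0.05. Over all tested genes 50.8% were positive and 6.73% had such a p, and a set of 4 genes is too small to set against those shares. That was Pcdh10, at 94.8, 84.2, 88.8 and 65.2 CPM in IUO 1 to 4, against 109, 92.6, 97.2 and 103 CPM in PNO 1 to 4, with a log2 fold change of -0.27 (SE 0.107, unadjusted p = 0.0253, adjusted p = 0.714). IUO 1 lay inside the PNO range. Pcdh18 averaged 5.37 ± 1.24 CPM in IUO and 6.68 ± 1.17 CPM in PNO, with a log2 fold change of -0.31 (SE 0.205, unadjusted p = 0.150, adjusted p = 0.725). The median was -0.06 for type I, -0.05 for type II and 0.04 for delta-1 members. Without PNO 1 the median over all 25 members was 0.0045, with 13 of 25 positive. Without the libraries with raised Drd2, which leaves only IUO 3 and IUO 4 in IUO, it was -0.25.

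**Figure D5:**
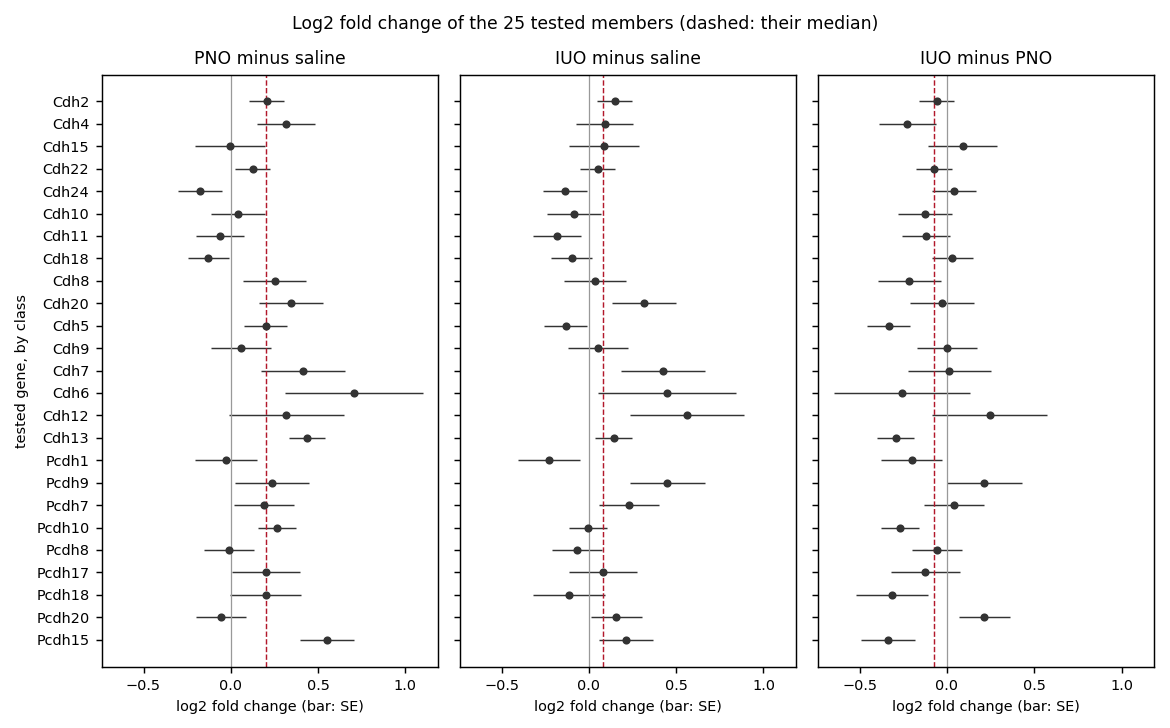
Log2 fold change with its SE (bars) of the 25 tested members in PNO minus saline, IUO minus saline and IUO minus PNO, by class from type I at the top; the dashed line is the median of the members. Most points lie right of 0 in PNO minus saline (18 of 25) and left of it in IUO minus PNO (17 of 25), and the bars of many members cross 0.

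Catenins and linkers tie classical cadherins to actin, and none of them passed an adjusted p of 0.05 in any comparison. All 10 listed genes found in the table were tested (Ctnnb1, Jup, Ctnna1, Ctnna2, Ctnnd1, Ctnnd2, Arvcf, Pkp4, Vcl and Afdn). In PNO against saline 8 of 10 were positive (51.2% of tested genes) with a median log2 fold change of 0.06, and 0 had an unadjusted p under 0.05 (11.0% of tested genes). In IUO against saline 4 of 10 were positive (56.4% of tested genes) with a median of -0.03, and 0 had such a p (4.02% of tested genes). In IUO against PNO 2 of 10 were positive (50.8% of tested genes) with a median of -0.07, and 1 had such a p (6.73% of tested genes). That gene was Jup (plakoglobin, a catenin found in desmosomes too), at 64.8 ± 8.78 CPM in IUO and 80.2 ± 12.5 CPM in PNO, with a log2 fold change of -0.31 (SE 0.131, unadjusted p = 0.0340, adjusted p = 0.714). Ctnnb1 (beta-catenin), the most abundant of them per length, was at 319 ± 23.6 CPM in PNO, 284 ± 21.4 CPM in IUO and 315 ± 55.5 CPM in saline.

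Pcdh1, the second most abundant member, differed between libraries more than between groups. It stood at 177, 206, 234 and 230.0 CPM in PNO 1 to 4, at 198, 201, 203 and 134 CPM in IUO 1 to 4 and at 166, 174, 279.7 and 243 CPM in saline 1 to 4. Saline held the highest library, saline 3, and IUO the lowest, IUO 4. Pcdh20 was at 32.8 ± 6.16 CPM in IUO and 28.3 ± 2.51 CPM in PNO, with overlap and a log2 fold change of 0.21 (SE 0.144, unadjusted p = 0.161, adjusted p = 0.726). The remaining tested members, Cdh8, Cdh11, Cdh18, Cdh22, Cdh9, Cdh15, Pcdh7, Pcdh8 and Pcdh17, had log2 fold changes against saline between -0.13 and 0.25 in PNO and between -0.18 and 0.23 in IUO. Of the members with few reads, Cdh17 (liver and intestine cadherin) had 16 counts in all 12 libraries together, found in PNO 3 and PNO 4 alone, Cdh26 had 77 counts, and Pcdh12, known from endothelium, had 540 counts. At that depth no difference could be read for Cdh17 and Cdh26.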

How the data were processed

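Poly(A) stranded libraries of 12 animals were aligned with HISAT2 and quantified with StringTie, per the submitters' processing notes. Their versions and the build and annotation behind them are not stated in the labels or notes. Whole-number counts and FPKM per gene and library stand side by side in the deposited table, per the file headers, and every sample column was used. Counts were fitted with edgeR 4.0.16 (R 4.3.3) with TMM factors and the quasi-likelihood test, in 1 model of 3 groups over the 14170 genes whose mean FPKM was 0.5 or more. Tests were two-sided, and p values were adjusted by Benjamini-Hochberg over all tested genes within each comparison. CPM are counts over library size times TMM factor, and log2 CPM used a prior count of 2. SE is the log2 fold change over the square root of its F. Counting error was not estimated apart from the spread between animals. Relative to the level it is larger for members with fewer counts. Pcdh15 had 208 to 380 counts per library and Cdh6 had 87 to 355, against 4660 to 8254 for Cdh13.

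The members, classes and marker lists were chosen with earlier results of these data known. Named members were the 5 with the smallest p in each comparison, any passing the threshold, any with all raised libraries apart from the rest, and the highest and lowest FPKM of each class. No 2 libraries of the same group were alike within sampling noise, and pairs across groups were not compared. The smallest chi-square per degree of freedom within a group was 36.5. The largest were those of IUO 4 with IUO 1, IUO 2 and IUO 3, at 194, 211 and 135, against at most 93.2 for other pairs within a group. Alternatives were DESeq2 1.42.0, limma 3.58.1 on log2(FPKM + 0.5) and log2(FPKM + 0.1), median-of-ratios size factors, other limits on FPKM, a fit of 2 groups, the replicate number as a block, removal of a length trend, Eomes and Drd2 covariates, and leaving out libraries. The edgeR step was tested on simulated data. Promoters came from RefSeq (GRCr8), and figures were drawn with matplotlib 3.10.9 in Python 3.11.15.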

Additional observations from a re-analysis of the deposited data

Results flagged for a closer look

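In groups of 4 a library was marked when its gap to the nearest other library, over the group's range, passed the critical value of Dixon's test at 95%. Of 75 groups of tested members, 2 were marked, where chance at 1 in 20 would give about 3.75. Pcdh1 was 134 CPM in IUO 4, against 198 to 203 CPM in the other 3 IUO libraries. Cdh11, a type II cadherin named after osteoblasts, was 45.3 CPM in IUO 1, against 30.0 to 32.5 CPM in the other 3 IUO libraries.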

How the results depend on the processing

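For PNO against saline, DESeq2, the fit of only the 2 groups and the fit without IUO 4 each called 1 member, Cdh13. Leaving out libraries 1 at a time gave 0 to 1 members called there and none in the other 2 comparisons, where the other alternatives called none either. Over all genes, calls for PNO against saline numbered 117 with DESeq2, 1 with limma on either pseudocount, 11 with only the 2 groups, 3 without the libraries with raised Eomes (PNO 2 then stands alone and is assumed to vary like the other groups) and 0 to 19 with 1 library left out, 19 without IUO 4. For IUO against saline they numbered 11 with DESeq2, 1 without raised Eomes, 4 without raised Drd2 and 0 to 1 with 1 library left out. For IUO against PNO they numbered 8 with DESeq2, 3 without raised Eomes, 3 without raised Drd2 and 0 to 1 with 1 library left out. The median of the 25 members moved to -0.060 (PNO against saline) and -0.16 (IUO against saline) with the Eomes and Drd2 covariates. Without raised Drd2, where IUO holds only IUO 3 and IUO 4, it moved to -0.048 (IUO against saline) and -0.25 (IUO against PNO). With 1 library left out it ran from 0.071 to 0.28, from 0.02 to 0.11 and from -0.14 to 0.0045 in these comparisons. Signs turned for Pcdh10 (-0.11), Cdh4 (-0.43) and Cdh20 (-0.088) in PNO against saline with the covariates, for Cdh20 in IUO against saline with the covariates (-0.0077) and without raised Drd2 (-0.048), and for Pcdh9 in IUO against saline without raised Drd2 (-0.0078). The cause was not tested.

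The labels do not say that the replicate number pairs animals. Deviations of same-numbered libraries from their group means correlated at 0.054 to 0.12 (PNO with saline), 0.0153 to 0.142 (IUO with saline) and 0.0579 to 0.411 (IUO with PNO). All were positive, with the highest for IUO 2 with PNO 2, which both had raised Drd2. The next was 0.238 for IUO 3 with PNO 3, which both had raised Eomes. Libraries of unlike number were not correlated in this way. Whether the number stands for a shared order or batch was not tested, nor was the part of the markers. The replicate block called 0 members and 0 genes in every comparison, with member medians of 0.19, 0.06 and -0.07, and members at an unadjusted p under 0.05 numbered 5, 1 and 4. A design of 4 animals per group from 2 dams limits every comparison. The 7 untested members were below the FPKM limit, with total counts from 16 (Cdh17) to 1642 (Cdh1), and no firm values are drawn from them.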
